A study of Rattus norvegicus with 26 samples.

Results

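The maturation of the hypertensive heart was followed between E20, day 20 of fetal development, and week 14 in the stroke-prone spontaneously hypertensive rat (SHRSP), an inbred model of hypertension whose left ventricle thickens with age. All arrays labelled SHRSP were taken, 7 of week 14 and 4 of E20, which is 11 of the 26 arrays of the series. The other 15 arrays are hearts of F344, an inbred rat strain with normal blood pressure, 8 of week 14 and 7 of E20. They shared in the estimate of spread behind every standard error (SE) and adjusted p, and in the choice of each gene's brightest probe. Beyond that, they entered only where the same difference was set beside that of SHRSP. Illumina RatRef-12 BeadChips were used, single-colour arrays with 22523 probes. The study looked among fetal to adult changes of heart expression for candidate genes of left ventricular hypertrophy.

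All animals were males of inbred colonies, each array carried the RNA of 1 animal, and the week 14 rats had been fed a diet of normal salt content. The fetal and the adult tissue were not the same part of the heart. By the methods, the week 14 samples were the free wall of the left ventricle without the septum, extracted with TRIzol under ketamine and xylazine anaesthesia, and the E20 samples were both ventricles without the atria, extracted with an RNeasy kit after decapitation. The sample labels give whole hearts for E20 and TRIzol for all samples. Age, dissected tissue and, by the methods, extraction therefore cannot be told apart in any difference given here. In such bulk RNA, fewer cells of a type and less RNA per cell cannot be told apart either.

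At birth the heart muscle cell leaves a setting of low oxygen, placental glucose and low pressure load. Rat heart muscle cells divide until shortly after birth and then grow mainly in size, while the energy supply moves from glucose and lactate to fatty acids and the contractile proteins move from fetal to adult isoforms. Blood cell precursors, which circulate before birth, and resident immune cells, which settle after it, change over the same time.

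The deposited values are log2 intensities, made comparable between arrays by quantile normalization, on which a difference of 1 is a change by a factor of 2. Differences are given as week 14 minus E20, so that a positive value is higher at week 14. They come from limma with 1 mean for each of the 4 groups. A probe passed at an adjusted p under 0.05, with the method of Benjamini & Hochberg over all probes, and was called when its difference was also above 1.5 or below -1.5. The lowest value was 6.64, the highest 15.53 and the median 7.16, and a level within 0.5 of that median is described as near the lower end, where a log2 difference understates the difference in RNA. Replicate pairs of the arrays correlated with r of 0.9884 to 0.9954 at week 14 and 0.9943 to 0.9981 at E20. The E20 arrays fell into 2 pairs, replicates 1 and 2 (r = 0.9981) and replicates 3 and 4 (r = 0.9971), against 0.9943 to 0.9946 between the pairs. Whether fetuses of 1 pair were litter mates is not given in the sources used here.

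Heart identity was clear at both ages. Of 10 muscle markers, 9 were measured. Tnnt2, cardiac troponin T, had a median of 15.21 (15.11 to 15.41) at week 14 and 15.30, 15.41, 15.11 and 15.08 at E20, and its difference of 0.02 did not pass (adjusted p = 0.877). Myh7 (0.07), Myl2 (0.14) and Myl3 (0.17) did not pass, whereas Myh6 (0.56), Tnni3 (0.84), Actc1 (0.39) and Ryr2 (1.84) rose and Nkx2-5, a heart transcription factor, fell by 0.50. Values of Tnnt2, Myh6 and Myh7 lay close to the top of the scale, where differences can be compressed.

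Of all probes, 255 were called higher (1.13%) and 217 lower (0.963%). With each pair of E20 arrays averaged to 1 sample the counts were 255 and 217 as well. Such averaging leaves every difference unchanged, so these equal counts cannot show whether the pairs matter. Among the 13337 named genes, each taken by its brightest probe, 220 were called higher at week 14 (1.65%) and 169 lower (1.27%). Without the limit on the difference, 2552 named genes passed as higher (19.1%) and 2717 as lower (20.4%), and the median difference was 0.00. The arrays of the ages did not overlap for any of the 220 genes called higher or the 169 called lower, together 2.92% of named genes. Over all named genes such cases were not counted. Small differences could be without overlap too, as for Gja3 (-0.11), so lack of overlap adds little to a call. The lower genes reached further, to -6.24 for Myl7, against 4.72 for Aldh1a1 among the higher ones. A difference above 3 was found for 28 named genes and one below -3 for 25. The E20 mean was near the lower end for 69 of the 220 higher genes, and the week 14 mean was near it for 73 of the 169 lower genes, so that their differences are understated. Of the 472 called probes (2.1%), 80 have no gene name in the annotation used here.

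**Figure D1:**
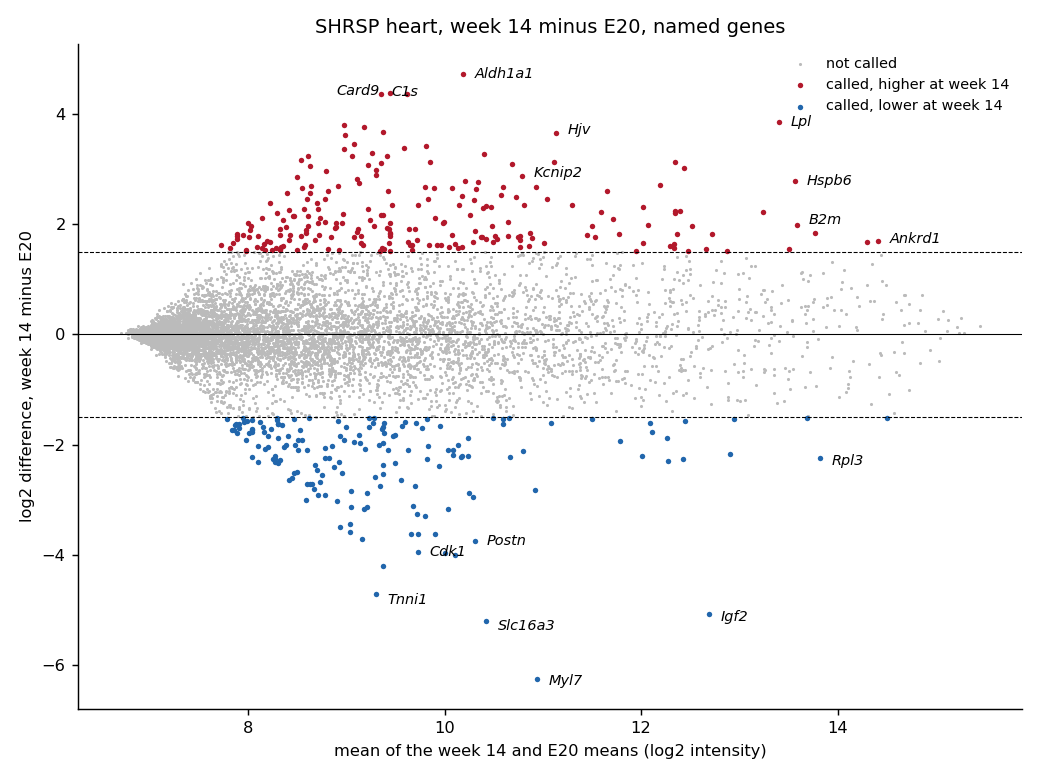
Log2 difference, week 14 minus E20, of each named gene in SHRSP hearts (vertical axis) against the mean of its week 14 and E20 means (horizontal axis, log2 intensity), with the limits of 1.5 and -1.5 as dashed lines. Called genes are spread over the whole range of levels, and Myl7, Slc16a3, Igf2 and Tnni1 lie lowest, at -6.24 to -4.71.

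The largest losses were those of Myl7, Slc16a3, Igf2 and Tnni1. Igf2, the fetal insulin-like growth factor, had a median of 10.21 (9.92 to 10.47) at week 14 and 15.02, 15.17, 15.41 and 15.30 at E20. It was among the brightest probes of the fetal heart and stayed well above the lower end in every adult array. The difference was -5.07 (SE 0.15, adjusted p = 9.71e-20). Tnni1, the slow skeletal troponin I that the fetal heart uses, had a median of 6.91 (6.88 to 7.04) at week 14 and 11.66, 11.86, 11.56 and 11.56 at E20, a difference of -4.71 (SE 0.10, adjusted p = 1.17e-22). All its week 14 values lay at the lower end. Slc16a3, which exports lactate from glycolytic cells, had a median of 7.82 (7.62 to 8.08) at week 14 and 12.76, 12.82, 13.15 and 13.33 at E20, and fell by 5.19 (SE 0.19). Myl7, the regulatory myosin light chain of atrial and early ventricular muscle, had a median of 7.85 (7.47 to 8.20) at week 14 and 13.94, 14.28, 14.28 and 13.76 at E20, and fell by 6.24 (SE 0.24). No array of one age came within 5 log2 units of the other age for Myl7.

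Other large losses were the matrix protein periostin (Postn, -3.75), the alpha haemoglobin stabilising protein of red cell precursors (Ahsp, -3.70), the smooth muscle light chain Myl9 (-3.62), the small GTPase Rhoa (-3.62), the heparin-binding growth factor midkine (Mdk, -3.30) and the membrane proteins Cdhr1 (-3.50) and Epb41l3 (-3.44). Postn was at 8.03 to 8.60 in 6 week 14 arrays and at 9.47 in replicate 6, against 12.05 to 12.26 at E20. Rhoa had the widest error of these genes (SE 0.26). The remaining genes of the 20 with the largest losses were Rrm2, Cks2, Ccnb2, Cdk1, Prc1, Knstrn, Arhgap11a, Gmnn and Hmgb2, with differences of -4.19 to -3.16.

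The largest gains were those of Aldh1a1, Myom2, C1s and Card9. Aldh1a1, a retinaldehyde dehydrogenase, had a median of 12.60 (12.29 to 12.72) at week 14 and 7.70, 7.78, 7.96 and 7.86 at E20, and rose by 4.72 (SE 0.13, adjusted p = 3.19e-20). Lpl, lipoprotein lipase, which releases fatty acids from circulating triglyceride, had a median of 15.30 (15.13 to 15.44) at week 14 and 11.23, 11.21, 11.55 and 11.89 at E20, and rose by 3.85 (SE 0.09). It ended among the brightest probes, close to the top of the scale. Myom2, a protein of the sarcomere's M band, had a median of 11.61 (11.35 to 12.01) at week 14 and 7.24, 7.34, 7.13 and 7.31 at E20, and rose by 4.38 (SE 0.11). All 4 fetal arrays were near the lower end for Myom2.

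Further gains among the 20 largest were found for the glycerol channel Aqp7 (3.80), the splicing regulator Rbfox1 (3.76), the iron regulator hemojuvelin (Hjv, 3.66), the laminin receptor Itga7 (3.36), Coq8a of coenzyme Q synthesis (3.27) and Pdk4, which inhibits pyruvate dehydrogenase (3.24). The immune genes among them were the complement proteases C1s (4.37) and C1r (3.24), the class II antigen-presenting chain RT1-Da (3.68), the signalling adaptor Card9 (4.36) and the interferon-inducible Ifi27l2b (3.29). Hsd11b1, which regenerates active glucocorticoid, rose by 3.41. Gda, Ptprr, Pla2g2a, Akr1c15 and Tuba8 had differences of 3.62, 3.46, 3.38, 3.23 and 3.17. Pdk4 spread most at week 14, with a median of 10.40 (10.03 to 11.66), and Tuba8 ran between 9.33 and 10.88 there.

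**Figure D2:**
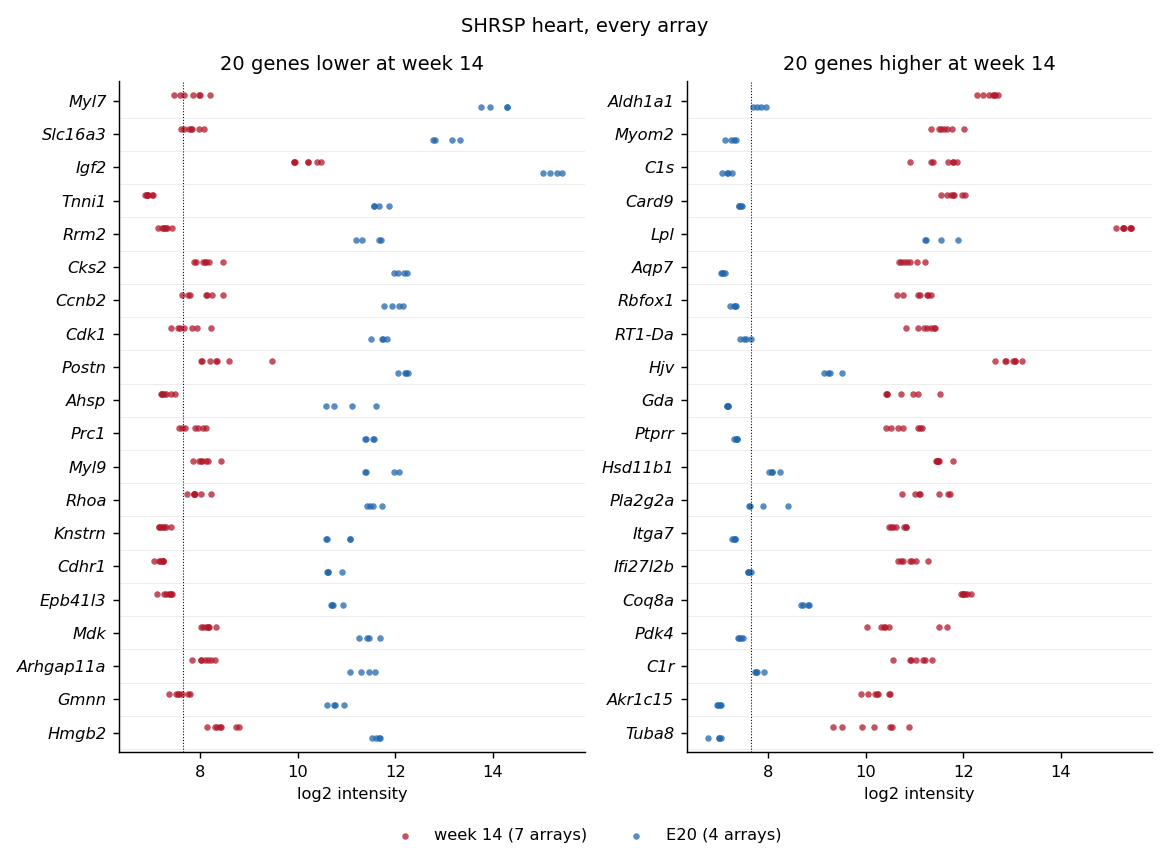
Log2 intensity of every SHRSP array for the 20 genes with the largest losses (left) and the 20 with the largest gains (right), with the 7 week 14 arrays in red above the 4 E20 arrays in blue. The dotted line at 7.66 marks the level 0.5 above the median of all values. The red and blue points are apart for every gene shown, which the rule for choosing these genes required.

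Cell division genes were almost all lower in the adult heart. Of 40 measured genes of replication origin licensing and the replication fork, 36 fell and 0 rose (20.4% and 19.1% of all named genes), with a median difference of -1.08 and 14 called lower. Of 36 genes of the spindle, the kinetochore and cytokinesis, 33 fell and 0 rose, with a median of -1.89 and 21 called lower. Over all named genes, 1.27% were called lower and 1.65% higher. The mean level of the spindle list was 7.16 to 7.32 in the week 14 arrays, which is the median of all values, and 8.98 to 9.02 in the E20 arrays. Rrm2, a subunit of ribonucleotide reductase, had a median of 7.27 (7.14 to 7.42) at week 14 and 11.20, 11.31, 11.66 and 11.71 at E20. Cdk1, the kinase that drives entry into mitosis, had a median of 7.68 (7.40 to 8.23) at week 14 and 11.73, 11.51, 11.74 and 11.82 at E20. Both were apart at every array. The adult values were near the lower end in every array for Rrm2, and lay on either side of its limit of 7.66 for Cdk1. Mcm6 of the replicative helicase fell by 3.11, the licensing inhibitor geminin (Gmnn) by 3.17, the mitotic kinase Aurkb by 3.13, the spindle motor Kif11 by 3.02 and the midzone protein Prc1 by 3.62. Foxm1, a transcription factor of mitotic genes, fell by 1.02, with a median of 7.27 (7.14 to 7.37) at week 14 and 8.21 to 8.40 at E20.

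Promoters of these genes are known to carry 2 elements, the E2F site of the G1 and S phases and the cell cycle homology region (CHR) of the later phases. They were read from RefSeq sequences of build GRCr8 that run from 250 bases before to 50 after the start of the gene, available for 10976 of the 13337 named genes, and both strands were searched. The CHR letters TTTGAA were found in 23 of 31 spindle promoters (74.2%), in 3 of 33 replication promoters (9.09%) and in 15.3% of all promoters. The E2F letters TTTGGCGC were found in 9 of 33 replication promoters (27.3%), in 0 of 31 spindle promoters and in 0.747% of all promoters. CCAAT, which does not overlap either element, was in 71% of spindle and 60.6% of replication promoters, against 37.7% of all. A match describes letters in the window and is not a binding site. Prc1, Spc25 and Cdk1 are shown for the CHR and Mcm6 and Gmnn for the E2F site, each from 150 bases before to 50 after the start, with the matched letters in capitals. Cdk1 is in neither list, so its promoter is not in the spindle or replication counts. Spc25, a kinetochore gene named after its values were seen, fell by 2.92.
Prc1, chr1:143659331-143659530 (forward strand): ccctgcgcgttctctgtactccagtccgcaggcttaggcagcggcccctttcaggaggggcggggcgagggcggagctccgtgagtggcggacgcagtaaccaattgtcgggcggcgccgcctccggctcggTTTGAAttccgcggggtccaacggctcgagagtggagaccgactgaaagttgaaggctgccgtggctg
Spc25, chr3:74396669-74396868 (reverse strand): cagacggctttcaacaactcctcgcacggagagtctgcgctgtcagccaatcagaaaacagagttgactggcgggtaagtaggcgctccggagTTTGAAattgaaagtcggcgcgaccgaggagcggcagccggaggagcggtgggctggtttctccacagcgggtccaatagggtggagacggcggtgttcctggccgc
Cdk1, chr20:19265143-19265342 (forward strand): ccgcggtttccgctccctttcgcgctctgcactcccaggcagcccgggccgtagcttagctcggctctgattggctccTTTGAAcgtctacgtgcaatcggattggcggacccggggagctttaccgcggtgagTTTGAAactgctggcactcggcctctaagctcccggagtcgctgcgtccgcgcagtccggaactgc
Mcm6, chr13:42404303-42404502 (reverse strand): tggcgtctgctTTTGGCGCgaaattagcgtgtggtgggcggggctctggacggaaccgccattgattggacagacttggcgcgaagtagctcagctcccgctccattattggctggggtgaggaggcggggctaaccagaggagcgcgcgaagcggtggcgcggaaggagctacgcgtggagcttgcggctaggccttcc
Gmnn, chr17:40729684-40729883 (forward strand): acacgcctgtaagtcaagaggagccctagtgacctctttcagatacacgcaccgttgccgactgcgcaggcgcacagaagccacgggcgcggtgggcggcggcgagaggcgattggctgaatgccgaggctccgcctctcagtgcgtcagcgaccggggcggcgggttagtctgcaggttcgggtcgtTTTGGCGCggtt
The Cdk1 window holds the CHR letters at 2 places, and both genes shown for the E2F site hold its letters once.

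Chromatin genes fell in part. Of 36 genes of DNA methylation, histone modification and the high mobility group, 20 fell and 4 rose, with a median of -0.33. Hmgb2, a DNA-bending protein of dividing cells, fell by 3.16, with a median of 8.41 (8.14 to 8.80) at week 14 and 11.60, 11.52, 11.66 and 11.69 at E20. Suv39h1, which methylates histone H3 in heterochromatin, fell by 1.84 and the nucleosome-binding Hmgn2 by 1.52. The mitochondrial deacetylase Sirt3 (1.13), the histone deacetylase Hdac4 (0.78) and the heterochromatin protein Cbx5 (0.46) rose.

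Genes that make proteins fell broadly but by smaller amounts. Of 65 cytosolic ribosomal proteins, 57 fell and 4 rose, with a median of -0.68 and only 2 called lower (1.27% of all named genes). Their mean level was 11.73 to 11.88 in the week 14 arrays and 12.44 to 12.49 in the E20 arrays, without overlap. Rpl3, a core protein of the large subunit, had a median of 12.69 (12.41 to 13.04) at week 14 and 14.89, 14.82, 14.94 and 15.11 at E20, a difference of -2.24 (SE 0.11, adjusted p = 4.8e-15). Its muscle paralogue Rpl3l had a median of 8.92 (8.84 to 9.16) at week 14 and 7.93, 7.90, 7.94 and 8.07 at E20, a difference of 1.01 (SE 0.07, adjusted p = 7.23e-12). The Rpl3 and Rpl3l probes therefore moved in opposite directions, each without overlap of the ages. Rpl31 fell by 1.72 and Rpl13 by 1.46, while Rps24 rose by 1.33 and Rpl22l1 by 0.46. Probes of ribosomal proteins may also bind RNA of their near-identical copies.

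Of 48 translation initiation and elongation factors, 28 fell and 4 rose, with a median of -0.23. Eef1a1, the general elongation factor, fell by 1.51 and its muscle and nerve form Eef1a2 rose by 0.58. Among helicases of initiation, Eif4a1 fell by 1.44 and Eif4a2 rose by 0.81. Eif4ebp1, which holds back cap-dependent initiation, fell by 1.47. Splicing factors and nuclear ribonucleoproteins fell in 26 of 36 cases and rose in 4, with a median of -0.45. Snrpa of the U1 particle fell by 2.21 and Hnrnpd by 1.32, whereas Snrpn, expressed mainly in nerve and heart, rose by 0.61. Of 18 cytosolic tRNA synthetases, 7 fell and 3 rose, and the median was -0.09. That count was the least stable of these: 4 fell without E20 replicate 1 or without replicate 2, and 1 rose without E20 replicate 3 or without replicate 4.

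Protein folding and breakdown genes split by family. Of 30 chaperonin subunits and heat shock proteins, 15 fell and 6 rose, with a median of -0.32. Cct7 (-1.11) and Cct2 (-0.83), subunits of the cytosolic chaperonin, and the co-chaperone Dnajb1 (-0.83) were among those that fell. The 4 called members were all higher, against 1.65% of all named genes called higher. Hspb6, a small heat shock protein of muscle, had a median of 14.91 (14.89 to 15.17) at week 14 and 12.17, 12.21, 12.30 and 12.04 at E20, and rose by 2.78 (SE 0.09, adjusted p = 5.05e-19). Bag3, which partners small heat shock proteins at the sarcomere, rose by 1.82 and the co-chaperone Dnajb4 by 1.84. The fourth called member, Hspb8, rose by 1.78 and is named after its value was seen. Proteasome subunits were closer to the shares of all named genes, with 12 of 42 higher, 8 lower and a median of -0.01. The immunoproteasome subunit Psmb8 was the exception called, at 1.91.

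Genes of mitochondrial protein synthesis and transport changed in both directions. Of 59 mitochondrial ribosomal proteins, 21 rose and 8 fell, with a median of 0.14, and Mrpl37 rose most (1.44). Of 49 mitochondrial carriers and import proteins, 19 rose and 15 fell, with a median of 0.06. The fatty acylcarnitine carrier Slc25a20 (1.28), the basic amino acid carrier Slc25a29 (1.19) and the oxoglutarate carrier Slc25a11 (1.07) rose, while the import proteins Timm22 (-1.06) and Timm13 (-0.97) and the adenine nucleotide carrier Slc25a5 (-0.98) fell.

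Of 19 measured genes that break down branched-chain amino acids and ketone bodies, 13 rose and 0 fell, with a median of 0.91. Bckdha, a subunit of the rate-limiting branched-chain ketoacid dehydrogenase, had a median of 10.50 (10.30 to 10.67) at week 14 and 8.74, 8.89, 8.78 and 8.73 at E20, a difference of 1.68 (SE 0.09). Auh of leucine breakdown rose by 1.65 and Acat1, which acts in ketone body and isoleucine breakdown, by 1.59. All 3 were called and without overlap. Antioxidant and glutathione enzymes rose in 27 of 44 cases, with a median of 0.51. Extracellular Sod3 rose by 2.19, the peroxiredoxin Prdx5 by 1.99 and mitochondrial Sod2 by 1.78, while Gpx8 (-1.11), Gstm5 (-0.95) and Gpx7 (-0.76) fell. The count of 5 lower members was 3 without any one of E20 replicates 1, 2 and 3 or week 14 replicates 2, 3 and 5.

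Cholesterol synthesis went the other way. Of 16 measured genes, 11 fell and 1 rose, with a median of -0.33. Sqle, squalene epoxidase, had a median of 7.31 (7.19 to 7.59) at week 14 and 9.31, 9.17, 9.26 and 9.20 at E20, and fell by 1.87. Acat2, which makes acetoacetyl-CoA, fell by 2.09 and the isomerase Idi1 by 1.10, whereas Fdft1, squalene synthase, rose by 1.48. Of 5 genes of creatine supply, the brain-type creatine kinase Ckb (-1.15) and the creatine-making enzymes Gamt (-0.74) and Gatm (-0.50) fell, the creatine transporter Slc6a8 rose by 0.93, and the muscle kinase Ckm had 0.07 (adjusted p = 0.653).

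**Figure D3:**
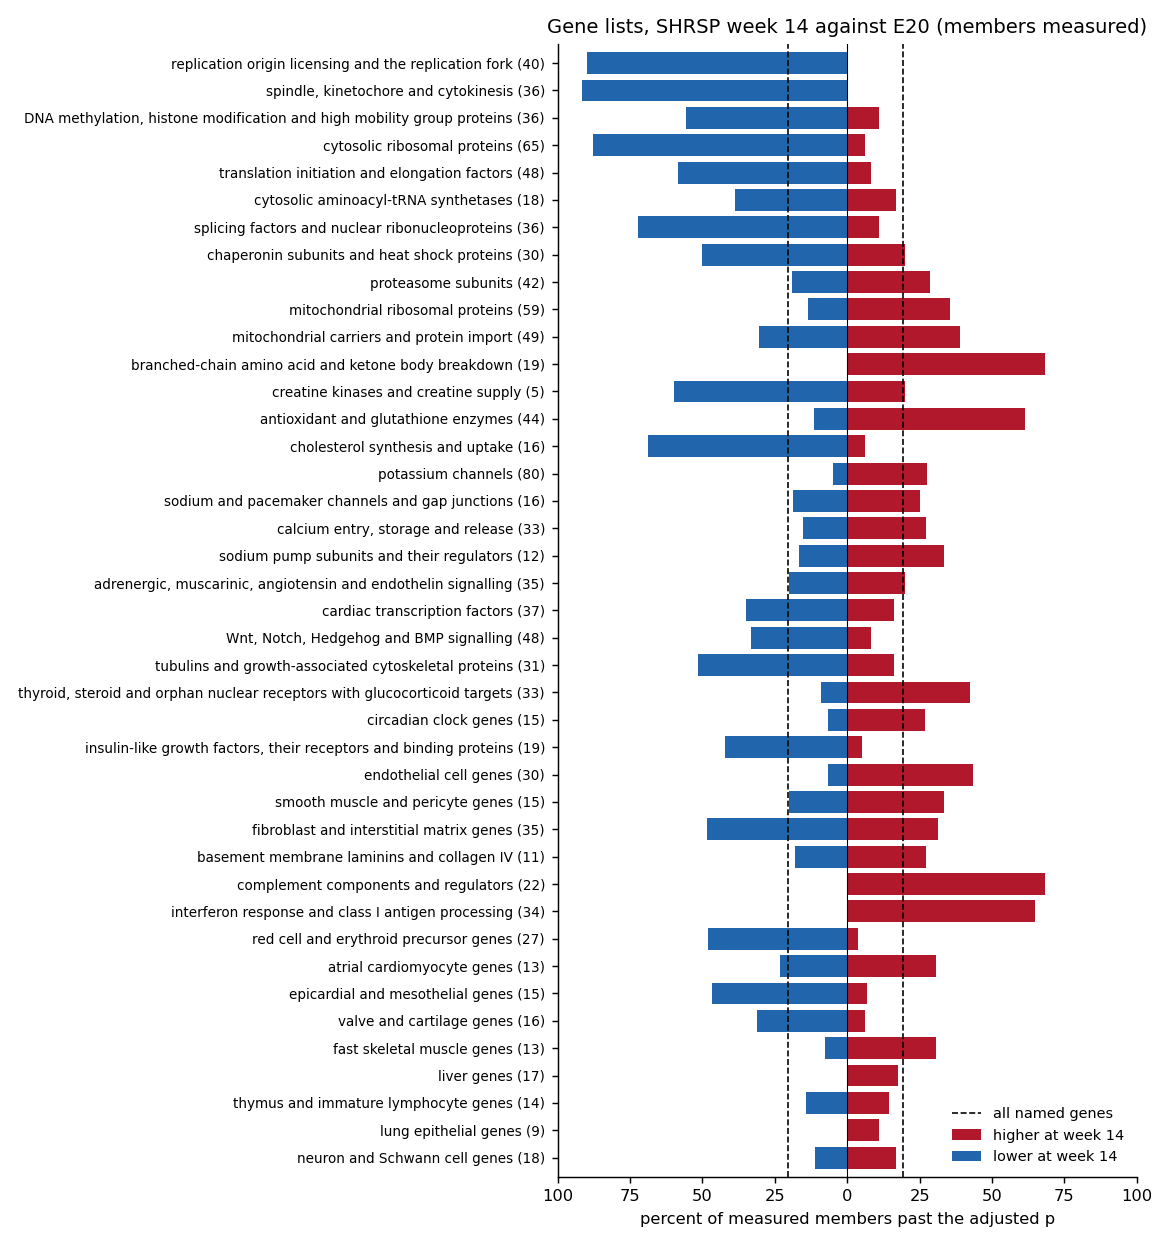
Percent of the measured members of each of 41 gene lists that passed at an adjusted p under 0.05, lower at week 14 to the left in blue and higher to the right in red, with the number measured in brackets and the shares over all named genes, 20.4% and 19.1%, as dashed lines. Replication, spindle and cytosolic ribosomal protein genes reach furthest to the left, and the branched-chain, complement and interferon lists reach far to the right with no member lower.

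Paired isoforms moved apart. Of 25 pairs listed with a fetal and an adult member, 18 had both members measured. In 11 of them the member listed as fetal fell and the one listed as adult rose. The list was made with earlier results of these data known, and not every pair is an established switch of heart muscle. Actb, for example, is a cytoplasmic actin and Actc1 a sarcomeric one. In 3 pairs only the fetal member fell, in 3 only the adult member rose, and in 1, pyruvate kinase, Pkm rose by 0.75 and Pklr did not pass (-0.03). Pklr, listed there as the adult member, was near the lower end at both ages. Over all measured members, 15 of 19 fetal ones fell and 16 of 22 adult ones rose, and no adult member fell. Tnni3, the adult troponin I, had a median of 14.51 (14.43 to 14.89) at week 14 and 13.83, 13.89, 13.51 and 13.64 at E20, a gain of 0.84 beside the -4.71 of Tnni1. The phosphofructokinase of platelets and fetal tissue, Pfkp, fell by 2.22 and the muscle form Pfkm rose by 1.26. For lactate dehydrogenase, Ldha fell by 0.51 and the heart subunit Ldhb rose by 0.97.

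The pairs of mitochondria and contraction had the same form. Cox8a fell by 1.53 and Cox8b rose by 1.17, and Cox6a1 fell by 1.08 and the muscle form Cox6a2 rose by 1.11. Cox8b had a median of 14.62 (14.55 to 14.91) at week 14 and 13.56, 13.53, 13.38 and 13.47 at E20, and Cox8a a median of 12.18 (11.90 to 12.43) at week 14 and 13.68, 13.69, 13.75 and 13.71 at E20. Both probes were apart at every array. Slc25a5 (-0.98) and Slc25a4 (0.45), Eno1 (-0.83) and Eno3 (0.66), Tpm4 (-1.30) and Tpm1 (0.28), and Actb (-0.62) and Actc1 (0.39) also moved apart. The fetal glucose transporter Slc2a1 was near the lower end at both ages and had a difference of -0.01 (adjusted p = 0.881), while the insulin-regulated Slc2a4 rose by 2.02. Cpt1a missed the threshold at 0.36 (adjusted p = 0.054) and passed under 8 of 23 alternatives, among them without week 14 replicate 6 (adjusted p = 0.0336, and 0.00447 to 0.202 over all), beside a gain of 1.36 for the muscle form Cpt1b. The myosin pair had 0.07 for Myh7 (adjusted p = 0.692) and 0.56 for Myh6. Both myosin probes lay close to the top of the scale, so a switch between them could be hidden by compression. The histone methyltransferase Ezh2 fell by 1.09 and Ezh1 had 0.14 (adjusted p = 0.326). Phosphoglycerate mutase of muscle, Pgam2 (2.65), and the heart fatty acid binding protein Fabp3 (1.27) rose, but their fetal partners have no named probe here.

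**Figure D4:**
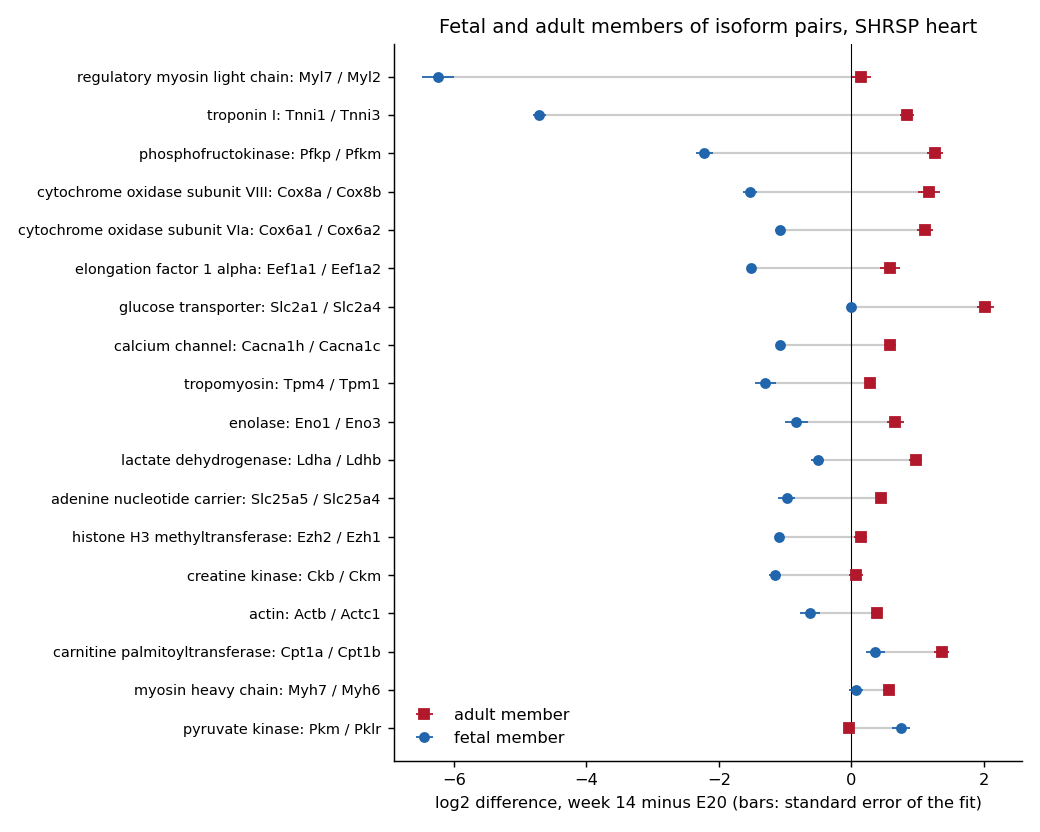
Log2 difference, week 14 minus E20, of the adult member (red squares) and the fetal member (blue circles) of the 18 isoform pairs with both measured, with the standard error of the fit as bars. The adult member lies to the right of the fetal one in all pairs but pyruvate kinase, and the gap is widest for the myosin light chains and troponin I.

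Among ion channels, 27.5% of potassium channels and 25% of sodium and pacemaker channels and connexins rose, against 19.1% of all named genes. The shares that fell were 5% and 18.8%, against 20.4%, and some members changed strongly. Of 80 potassium channel genes, 22 rose and 4 fell, with a median of 0.02, and 65 were near the lower end at both ages. Kcnip2, a subunit of the transient outward current that shapes early repolarisation, had a median of 12.29 (11.77 to 12.73) at week 14 and 9.12, 9.08, 9.44 and 9.78 at E20, and rose by 2.87 (SE 0.17, adjusted p = 1.85e-13). Kcne1, a subunit of the slow delayed rectifier, had a median of 8.63 (8.45 to 9.02) at week 14 and 6.91 to 7.10 in the 4 arrays of E20, and rose by 1.66 (SE 0.09). Its E20 values were at the lower end, so this gain is understated. Its partner Kcnq1 fell by 0.33, and did not pass with E20 pairs averaged (adjusted p = 0.0523, and 0.00265 to 0.0523 over all alternatives). Of 16 sodium and pacemaker channels and connexins, 4 rose and 3 fell. Scn4b, a regulatory sodium channel subunit, rose by 2.39, and the connexin Gja5 of atria and conduction tissue fell by 1.52.

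Of 33 genes of calcium entry, storage and release, 9 rose and 5 fell, with a median of 0.06. Hrc, which binds calcium in the sarcoplasmic reticulum, rose by 2.43, with a median of 11.44 (11.27 to 11.94) at week 14 and 9.22, 9.32, 8.87 and 8.90 at E20. The release channel Ryr2 rose by 1.84 (SE 0.20), with a median of 9.39 (9.11 to 10.17) at week 14 and 7.55, 7.60, 7.65 and 7.88 at E20. The T-type calcium channels of the fetal heart fell, Cacna1g by 1.43 and Cacna1h by 1.08, and the L-type Cacna1c rose by 0.58. Fkbp1a, a small partner of release channels, fell by 0.99. Of 12 genes listed as sodium pump subunits and regulators, 4 rose and 2 fell, led by Slc4a3 (0.74) and Fxyd6 (-1.13). Slc4a3 is an anion exchanger and no part of the pump. Fxyd2 (0.63) and Fxyd3 (0.45) also rose. The count of 2 includes Atp1b4 (-0.20), which no longer passed without E20 replicate 3 or any one of week 14 replicates 1, 3, 4 and 6.

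Of 35 genes of adrenergic, muscarinic, angiotensin and endothelin signalling, 7 rose and 7 fell, near the background in both directions. Adra1b, the alpha adrenergic receptor of heart muscle, stood out with a gain of 2.77 (SE 0.20), a median of 11.83 (11.24 to 12.14) at week 14 and values of 8.82, 8.87, 9.21 and 8.93 at E20. Rgs4, which shortens G protein signals, rose by 1.13, and the inhibitory G protein subunit Gnai2 fell by 1.07. Of 33 nuclear receptors and glucocorticoid targets, 14 rose and 3 fell, with a median of 0.10. Rxrg, a retinoid X receptor, rose by 2.67, with a median of 12.32 (11.82 to 12.58) at week 14 and 9.61, 9.58, 9.71 and 9.48 at E20. Hsd11b1 had a median of 11.48 (11.45 to 11.80) at week 14 and 8.08, 8.02, 8.09 and 8.25 at E20, and the glucocorticoid target Fkbp5 rose by 1.46. Thrb, a thyroid hormone receptor named after its value was seen, rose by 1.46, while Thra (-0.36), Rara (-0.38) and Rarb (-0.39) fell. Thra no longer passed with E20 pairs averaged, with a replicate block or with the methods' test (adjusted p of 0.0044 to 0.0773 over all alternatives). Rarb was at -0.13 and did not pass as the mean of its probes (0.00219 to 0.172 over all alternatives). Of 15 clock genes, 4 rose and 1 fell, led by Nr1d1 (1.21) and Bmal1 (0.59), and the hour of sampling is not given in the sources used here.

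Of 37 cardiac transcription factors, 13 fell and 6 rose, with a median of -0.04. Irx4, a ventricular homeobox factor, had a median of 9.40 (8.90 to 9.55) at week 14 and 11.01, 10.97, 11.23 and 11.46 at E20, and fell by 1.87. Hey2 of the compact ventricular wall fell by 1.34. Ankrd1, a stretch-responsive muscle protein, rose by 1.69 with a median of 15.24 (15.19 to 15.38) at week 14, and Hopx (0.74) and Klf15 (0.73) rose. Of 48 Wnt, Notch, Hedgehog and BMP genes, 16 fell and 4 rose, and 32 were near the lower end at both ages. The Wnt receptor Fzd1 fell by 2.33, the Notch-related Dlk1 by 1.73 and Id2 by 0.98, while Wnt11 (0.48), Bmpr2 (0.44) and Notch1 (0.42) rose. Of 19 genes of insulin-like growth factors, 8 fell and 1 rose. Besides Igf2, its clearance receptor Igf2r fell by 1.14 and Igfbp3 by 1.16, and Igfbp6 rose by 1.35.

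Of 31 tubulins and growth-associated cytoskeletal proteins, 16 fell and 5 rose, with a median of -0.27, and 3 rose without E20 replicate 3. Stmn1, which destabilises microtubules, had a median of 8.34 (8.02 to 8.64) at week 14 and 11.32, 11.24, 10.93 and 10.79 at E20, and fell by 2.74. Tubb6 fell by 1.95 and Marcksl1 by 1.91. The tubulins Tuba8 (3.17) and Tuba4a (1.22) and the profilin Pfn2 (1.31) rose.

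RNA of matrix genes changed in both directions. Of 35 fibroblast and interstitial matrix genes, 17 fell and 11 rose, with a median of -0.22. Of the 35, 5 were called lower and 4 higher, against 1.27% and 1.65% of all named genes. Col1a1, a chain of type I collagen, had a median of 8.17 (7.92 to 8.29) at week 14 and 10.31, 10.53, 10.03 and 10.03 at E20, and fell by 2.07, and fibronectin (Fn1) fell by 1.78. Decorin (Dcn), a small collagen-binding proteoglycan, had a median of 13.07 (12.94 to 13.24) at week 14 and 11.51, 11.54, 11.38 and 11.52 at E20, and rose by 1.60. Fibulin 1 (Fbln1) rose by 1.75 and gelsolin (Gsn) by 1.64. Of 11 laminins and chains of collagen IV, 3 rose and 2 fell, with Lamb2 at 1.37 and Col4a1 at -1.20. Of 30 endothelial genes, 13 rose and 2 fell, with a median of 0.15. Von Willebrand factor (Vwf, 1.45), the fatty acid transporter Cd36 (1.40) and the Lpl anchor Gpihbp1 (1.04) rose, whereas Plvap of fenestrated endothelium fell by 2.24. Of 15 smooth muscle and pericyte genes, 5 rose and 3 fell, between 1.18 for Higd1b and -0.92 for Actg2.

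Immune genes were higher in the adult heart. Of 22 complement components and regulators, 15 rose and 0 fell, with a median of 0.67 and 7 called higher (1.65% of all named genes). C1s had a median of 11.68 (10.92 to 11.87) at week 14 and 7.17, 7.19, 7.26 and 7.06 at E20, and C1r a median of 11.04 (10.56 to 11.36) at week 14 and 7.73, 7.75, 7.92 and 7.77 at E20. In the fetal heart C1s was near the lower end, and C1r lay a little above its limit of 7.66. Clusterin (Clu), a regulator of complement that also marks epicardium, had a median of 13.96 (13.64 to 14.27) at week 14 and 11.21, 11.05, 10.77 and 10.68 at E20, and rose by 3.02.

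Of 34 genes of the interferon response and class I antigen processing, 22 rose and 0 fell, with a median of 0.53. Of the 34, 7 were called higher, against 1.65% of all named genes. B2m, the invariant chain of class I molecules, had a median of 14.61 (14.44 to 14.66) at week 14 and 12.61, 12.58, 12.65 and 12.55 at E20, and rose by 1.98 (SE 0.07, adjusted p = 1.22e-18). The chemokine Cxcl11 rose by 3.11. Irf1, a transcription factor of the interferon response, rose by 2.16 (SE 0.35) and varied most among the adult hearts, with 12.32 in replicate 6 and 9.24 to 10.90 in the other 6, against 8.07, 8.12, 8.41 and 8.48 at E20. The letters GAAANNGAA, a core of the interferon response element, were found on either strand in 18 of 28 promoters of the list (64.3%) and in 8.25% of all promoters. The windows of Psmb8 and B2m are shown with these letters, or their reverse complement, in capitals.
Psmb8, chr20:4656982-4657181 (reverse strand): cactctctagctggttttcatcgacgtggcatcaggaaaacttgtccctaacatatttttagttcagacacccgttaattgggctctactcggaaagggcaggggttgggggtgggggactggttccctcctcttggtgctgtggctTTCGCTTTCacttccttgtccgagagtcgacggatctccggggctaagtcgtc
B2m, chr3:129549180-129549379 (forward strand): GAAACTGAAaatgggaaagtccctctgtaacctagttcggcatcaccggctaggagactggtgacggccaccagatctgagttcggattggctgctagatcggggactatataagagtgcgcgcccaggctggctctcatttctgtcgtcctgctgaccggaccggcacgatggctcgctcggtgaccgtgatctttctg
Psmb8 had a median of 9.25 (8.84 to 9.72) at week 14 and 7.31, 7.31, 7.51 and 7.37 at E20, so its fetal level was near the lower end, unlike that of B2m.

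Markers of other tissue moved in some lists, and their part in the results above was not tested. Of 27 red cell and erythroid precursor genes, 13 fell and 1 rose, and 2 rose without E20 replicate 4 or without week 14 replicate 6. The mean level of this list was 8.15 to 8.34 in the week 14 arrays and 8.49 to 8.65 in the E20 arrays. Ahsp had a median of 7.27 (7.20 to 7.48) at week 14 and 10.75, 11.11, 11.60 and 10.57 at E20, and the embryonic globin Hbe1 a median of 6.92 (6.88 to 7.0) at week 14 and 8.80, 9.47, 9.59 and 8.76 at E20. Both were at the lower end in every adult array. Adult globin RNA was bright at both ages, with a median of 14.04 (13.87 to 14.76) for Hbb at week 14 and 15.38, 15.24, 14.97 and 15.35 at E20. Globin probes may bind RNA of several globin genes.

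Of 13 atrial genes, 4 rose and 3 fell, with a mean level of 8.54 to 8.76 in the week 14 arrays and 9.09 to 9.16 in the E20 arrays, and 5 were near the lower end at both ages. Myl7 (-6.24) and Gja5 (-1.52) were the called members, both lower, though Gja5 lost the call without E20 replicate 2 or without week 14 replicate 4 or 7 (values at the limit of -1.5 or, without E20 replicate 2, -1.49). Nppa, the atrial natriuretic peptide, which fetal ventricles and loaded adult ventricles also make, rose by 1.13, with a median of 14.27 (13.48 to 14.76) at week 14 and 13.17, 13.25, 12.83 and 13.03 at E20. The atrial channel subunit Kcna5 rose by 0.25 and was near the lower end at both ages.

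Most members of the remaining tissue lists were near the lower end at both ages. Of 15 epicardial and mesothelial genes, 7 fell and Clu rose, and 11 were near the lower end at both ages. Tcf21 fell by 1.17, Krt19 by 0.77 and Msln by 0.57, the last not passing without E20 replicate 2 (adjusted p = 0.0504). Of 16 valve and cartilage genes, 5 fell and 1 rose, with versican (Vcan) at -2.02, 14 near the lower end, and 3 lower without any one of E20 replicates 3 and 4 and week 14 replicate 5. Of 18 neuron and Schwann cell genes, 3 rose and 2 fell, led by Cdh19 (1.03) and Uchl1 (-0.60). Of 17 liver genes, 3 rose and 0 fell, and 14 were near the lower end at both ages. Transferrin (Tf) rose by 2.11, vitronectin (Vtn) by 2.61 and transthyretin (Ttr) by 1.04. Of 13 fast skeletal muscle genes, 4 rose, led by Tnnc2 (0.55), and 11 were near the lower end. The 1 that fell, Actn3 (-0.09), did not pass without any one of E20 replicates 1, 3 and 4 and week 14 replicates 1, 3 and 4.

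Of 14 thymus and immature lymphocyte genes, 2 rose and 2 fell, and 13 were near the lower end. The gain of Cd4 (0.16) was lost without any one of the 4 E20 replicates or week 14 replicates 2, 3, 5 and 7, and the loss of Satb1 (-0.23) without E20 replicate 3 or with E20 pairs averaged. Of 9 lung epithelial genes, all near the lower end, Napsa alone passed (0.21). It did not pass without any one of E20 replicates 1, 2 and 3 and week 14 replicates 1, 2, 3, 6 and 7, and 1 lung gene was lower without week 14 replicate 3.

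Most of these differences were also found in F344. Of the 472 probes called in SHRSP, 358 were called in F344 in the same direction, where 1.97% of all probes were called, and 470 passed there in the same direction. The difference between the strains in the change with age was tested as an interaction, SHRSP change minus F344 change. For 667 of all probes it passed (2.96%), and 15 probes were called with it (0.0666%), 8 with a higher change in SHRSP (0.0355%) and 7 with a lower one (0.0311%). Among the 472 probes, 58 passed the interaction and 8 were called with it.

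In the called genes, the strains parted in several ways. Card9 averaged 11.80 ± 0.17 in SHRSP at week 14 (SD, n = 7) and 7.43 ± 0.03 at E20 (SD, n = 4), and 8.58 ± 0.27 in F344 at week 14 (SD, n = 8) and 7.46 ± 0.07 at E20 (SD, n = 7), an interaction of 3.24 (SE 0.14, adjusted p = 3.85e-14). It rose in both strains, by 4.36 in SHRSP and 1.12 in F344. These Card9 values are signals of 1 array probe, and whether they follow its RNA was not tested here. Kcne1 and Defb1, an antimicrobial peptide, rose by 1.66 and 1.57 in SHRSP, and had 0.02 (adjusted p = 0.842) and 0.03 (adjusted p = 0.88) in F344. Their interactions were 1.64 and 1.54, and that of Defb1 was not past the limit without week 14 replicate 1 (1.45) or without replicate 2 (1.5). Nppa rose in SHRSP by 1.13 and fell in F344 by 1.45, an interaction of 2.59 (SE 0.31, adjusted p = 1.81e-06).

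The skeletal actin Acta1 differed by -0.33 in SHRSP (adjusted p = 0.274) and fell in F344 by 2.67, an interaction of 2.33. With only the SHRSP arrays in the fit, the loss of Acta1 in SHRSP passed (adjusted p = 2.95e-05, and up to 0.539 over all alternatives). The globin probe Hbb-b1 had 0.52 in SHRSP (adjusted p = 0.131, and 0.0443 with only the SHRSP arrays in the fit) and fell by 1.26 in F344, an interaction of 1.78. Here the strains already differed at E20, with 9.89 ± 0.25 in SHRSP (SD, n = 4) and 12.55 ± 0.42 in F344 (SD, n = 7).

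In F344 Myl7 fell by 2.46 and ended at 11.58 ± 0.62 there (SD, n = 8) against 7.82 ± 0.26 in SHRSP at week 14 (SD, n = 7), an interaction of -3.78 (SE 0.31, adjusted p = 6.25e-09). The E20 means were 14.06 in SHRSP and 14.04 in F344. How closely the left ventricular wall was freed of atrial tissue in each strain was not tested. The lymphocyte genes Ccl5 and Nkg7 rose by 1.57 and 0.64 in SHRSP and by 3.68 and 2.30 in F344, with interactions of -2.11 and -1.66. Adhfe1, a mitochondrial dehydrogenase, had 0.28 in SHRSP, which did not pass without E20 replicate 4 (adjusted p = 0.0572) or with E20 pairs averaged (0.0854, the highest of all alternatives), and rose by 2.21 in F344. Cds1, of phospholipid synthesis, had 0.14 in SHRSP (adjusted p = 0.169) and rose by 1.83 in F344. Their interactions were -1.93 and -1.69. Ahsp fell by 3.70 in SHRSP and 2.16 in F344, an interaction of -1.55, with E20 means of 11.01 ± 0.45 in SHRSP (SD, n = 4) and 9.50 ± 0.48 in F344 (SD, n = 7). Without SHRSP E20 replicate 3 the interaction of Ahsp was -1.35 and not called.

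Ephx2, soluble epoxide hydrolase, rose by 1.64 in SHRSP and 1.05 in F344, an interaction of 0.59 (SE 0.15, adjusted p = 0.0217). It averaged 8.98 ± 0.18 in SHRSP at week 14 (SD, n = 7) and 7.34 ± 0.02 at E20 (SD, n = 4), and 11.31 ± 0.26 in F344 at week 14 (SD, n = 8) and 10.26 ± 0.16 at E20 (SD, n = 7), so that SHRSP was lower at both ages. A DNA difference between the strains within a probe's target can change its signal, which was not tested for any gene. The 3 probes called with the interaction that have no gene name in the annotation used here had values of -1.91 (ILMN_1376550), 1.93 (ILMN_1650334) and 1.58 (ILMN_1366881), the last not called without SHRSP week 14 replicate 1 (1.48), 2 (1.5) or 7 (1.46).

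**Figure D5:**
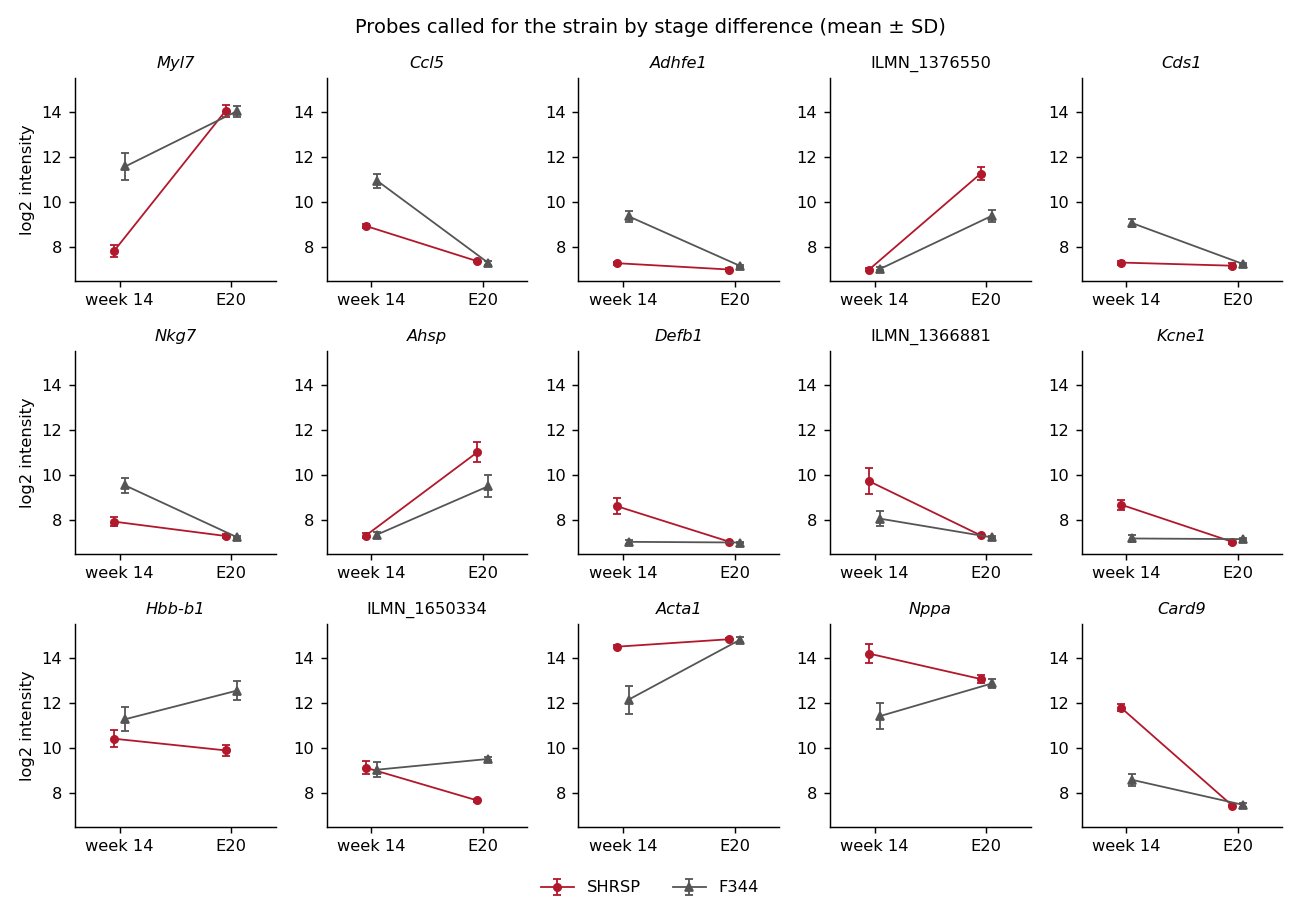
Mean log2 intensity at week 14 and E20 in SHRSP (red circles, n = 7 and 4) and F344 (grey triangles, n = 8 and 7), with the SD as bars, for the 15 probes whose change with age differed between the strains at the call limits. Nppa rose in SHRSP and fell in F344, Card9 rose further in SHRSP, and Myl7 fell further in SHRSP.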

How the data were processed

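Heart RNA of SHRSP and F344 rats was hybridised to Illumina RatRef-12 BeadChips, 1 array per individual sample, with no pooled RNA. The authors read the arrays in GenomeStudio, checked them in the R package lumi, removed those that correlated poorly with their group, and deposited log2 intensities after quantile normalization. These were used as deposited, for 22523 probes on 26 arrays. The 52 columns of the deposited raw intensity table carry names that match no sample label, so they were not used and no detection filter was applied. Groups and replicate numbers came from the sample labels. In the array's annotation 13793 probes have 1 gene name, 8730 are unnamed here and 0 have several. The gene ID gave a current symbol for 13752 probes, and 41 kept the table's name. The brightest probe stands for each of the 425 genes with several.

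Fits used limma 3.58.1 (lmFit and eBayes) in R 4.3.3, with 1 mean for each of the 4 groups and Benjamini & Hochberg adjustment over all probes. The labels give no batch. The p-values measure the spread between arrays of individual samples, whose litters are not given in the sources used here. The genes, the 41 gene lists and the isoform pairs were chosen with earlier results of these data known, so lists are described by counts and medians without a test. By rule, the text draws on the 20 largest called differences in each direction among genes whose ages do not overlap, up to 3 passing members per list and direction, members of the isoform pairs, up to 8 called probes per direction of the strain by stage difference, Nppa, and 5 genes that the study followed by qPCR, of which Efcab6 has no named probe here. Heart markers were listed separately, and genes outside are marked in the text.

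On simulated data for week 14 minus E20 over 22523 probes, 45 of 50 probes changed by 0.5 and all 50 changed by 1 passed. All 50 changed by 1.7 and all 50 changed by 2.5 were called, and 5 of 22323 unchanged probes passed with 0 called. The simulated noise was normal and independent for each probe and array, without the pairs of the E20 arrays. Far fewer probes changed than in the data, so these rates need not hold for the data. Alternatives were other scalings, filters, limits and fits, E20 pairs averaged, a replicate block, and fits without each SHRSP array in turn. The number of arrays, above all the 4 of E20, limits the precision. Promoters and gene names come from RefSeq (GRCr8). Python 3.11.15 with pandas 2.3.3, NumPy 2.4.6 and Matplotlib 3.10.9 served for tables and figures.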

Additional observations from a re-analysis of the deposited data

Results flagged for a closer look

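The change with age differed between the strains by the interaction test for 667 probes, and for 15 of them by more than 1.5 as well, given as SHRSP change minus F344 change. The negative values were -3.78 for Myl7, -2.11 for Ccl5, -1.93 for Adhfe1, -1.91 for ILMN_1376550, a probe with no gene name here, -1.69 for Cds1, -1.66 for Nkg7 and -1.55 for Ahsp. The positive values were 3.24 for Card9, 2.59 for Nppa, 2.33 for Acta1, 1.93 for ILMN_1650334, 1.78 for Hbb-b1, 1.64 for Kcne1, 1.58 for ILMN_1366881 and 1.54 for Defb1.

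Single SHRSP arrays stood apart from the rest of their group for 16 of 432 groups of arrays over the genes named, by Dixon's 95% limit on the gap to the nearest array, which chance passes in about 1 of 20 groups. At week 14 replicate 1 stood apart for Cox8b (14.91), Cxcl11 (10.43), Eno1 (8.11), Fkbp1a (11.35), Rarb (10.44), Tnni3 (14.89) and Ttr (8.76), replicate 6 for Postn (9.47), Rpl31 (8.83) and Tf (11.36), replicate 5 for Slc2a1 (7.29) and replicate 7 for Hsd11b1 (11.80). At E20 replicate 3 stood apart for Cdh19 (7.80) and Tnnc2 (7.30), replicate 4 for Cdhr1 (10.91) and replicate 1 for Pfn2 (7.85). The cause of these gaps was not tested.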

How the results depend on the processing

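No value of a named gene reversed its direction under any alternative run (0 of 6540 values, of which 79 no longer passed and 13 newly passed). A reversal was counted only where at least 1 of the 2 values passed. Several alternatives, such as the filters, the methods' test and E20 pairs averaged, leave the difference itself unchanged and could not reverse it. Calls of week 14 minus E20 were 254 to 265 higher and 211 to 225 lower without each SHRSP array in turn. The strain by stage calls were 6 to 9 higher and 6 to 7 lower without each SHRSP array in turn. A limit of 1 on the log2 difference gave 633 higher and 568 lower probes, with 33 higher and 20 lower for the strain by stage difference, and a limit of 2 gave 119 and 112, with 3 and 2. With probes kept only where at least 1 above the median, 2115 passed as higher and 2275 as lower, since fewer probes were tested. Under the same filter, 27 counts of 17 lists moved, with fewer members tested. In the direction that led each list, the higher members were 7 potassium channels, 2 sodium channels and connexins, 2 sodium pump genes, 9 nuclear receptor and glucocorticoid genes, 1 clock gene, 1 neuron gene and 0 fast skeletal, thymus and lung genes, and the lower members were 8 Wnt, Notch, Hedgehog and BMP genes, 4 insulin-like growth factor genes, 4 red cell genes, 1 epicardial gene and 1 valve gene.

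Over all alternatives, counts of 21 of the 41 lists moved by more than 1.5 times in one direction or the other. With E20 pairs averaged, 4 tRNA synthetases, 3 valve genes, 5 proteasome subunits, 3 antioxidant enzymes, 0 fast skeletal and 0 thymus genes were lower, and 3 tubulins and related genes, 1 thymus gene, 0 tRNA synthetases and 0 lung genes higher. With only the 11 SHRSP arrays, and with quantile normalization over them, 3 valve genes and 1 sodium pump gene were lower, and 1 replication gene, 2 insulin-like growth factor genes, 2 red cell genes, 2 valve genes and 0 lung genes higher. With the methods' test on single probes, 3 valve genes, 2 fast skeletal genes and 1 sodium pump gene were lower, and 3 cardiac transcription factors, 3 tubulins and related genes, 2 insulin-like growth factor genes, 2 valve genes, 1 tRNA synthetase and 0 lung genes higher. With array weights, 3 insulin-like growth factor genes and 2 red cell genes were higher and 2 fast skeletal genes lower, and with dim probes left out, 5 tRNA synthetases were higher and 0 fast skeletal genes lower. Without each SHRSP array in turn, the tRNA synthetases lower were 4 to 7, the valve genes lower 3 to 5, the thymus genes higher 1 to 2 and the lung genes higher 0 to 1, and other counts that moved are given beside the lists.

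The replicate numbers were not taken as pairs in the main fit. Deviations of same-numbered week 14 and E20 arrays correlated at 0.3378, 0.0561, -0.0882 and 0.1862 for numbers 1 to 4. Arrays of different numbers were not compared, so these values cannot show whether the numbers pair arrays. With the replicate number as a block, 254 probes were called higher and 215 lower, 3 valve genes and 1 sodium pump gene were lower, and 3 tubulins and related genes, 1 replication gene, 1 thymus gene and 0 lung genes were higher. Signal near the lower end at both ages, as for 65 of 80 potassium channels and 32 of 48 morphogen genes, limits what difference can be seen.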
